A study of Homo sapiens with 20 samples.

Results

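The LIM homeodomain factors LHX1, LHX3, LHX4, LHX5, LHX8, LHX9, ISL1, ISL2, LMX1A and LMX1B were followed while human neural progenitors became neurons. A member was any coding record of the deposited catalogue that carried one of these symbols. Each symbol had 1 record and none was merged with a second gene, so that the group comprised 10 of 20237 coding records. The progenitors were made from the established embryonic stem cell line H1 of human origin, and all samples therefore share 1 genome. Neuronal differentiation was started by taking away FGF, which keeps progenitors dividing, and adding the neurotrophin BDNF in Neurobasal medium with B27. PolyA RNA was sequenced as paired ends at day 0, the progenitor state, and then at days 1, 2, 4 and 5 and at days 11 and 18, with 3 cultures a day and 2 at day 5 (20 samples), a deviating culture of day 5 having been left out by the submitters. Cultures grew on Matrigel, and those taken at days 5, 11 and 18 had been replated on poly-D-lysine and laminin at day 4, so that from day 5 onwards time and surface cannot be told apart.

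LIM homeodomain proteins carry a pair of zinc-binding LIM domains ahead of a DNA-binding homeodomain. The LIM domains bind the adaptor LDB, which joins several factors into one complex, and LIM-only (LMO) proteins compete for the same adaptor. In the embryonic nervous system, combinations of these factors mark classes of newly born neurons, such as the motor neurons that use ISL1 with LHX3. Outside it, members act in the pituitary, kidney, heart, gonad, limb and pancreas.

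The start regions of the members that the results below turn on are shown to place their genes on the genome. The windows run from 250 bases before to 50 bases after a start site in the RefSeq table for GRCh38.p14, which held 13 windows for 8 of the 10 members. LHX1 and LHX5 were not among them. Each window matched GRCh37, the build of the deposited coordinates, exactly. Capitals mark TAAT, the core that many homeodomains bind, read on either strand (ATTA on the other).

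LMX1B is shown as the member with the highest level, at chr9:129375957-129376256 on the plus strand, and the start of a lincRNA lies in this window, 228 bases before the LMX1B start site. ISL1 (chr5:50679032-50679331, plus strand) and LHX9 (chr1:197881344-197881643, plus strand) are shown as a pair of like course over the days on the log2 scale used below. ISL2 (chr15:76628864-76629163, plus strand) is shown because its course was another.
LMX1B: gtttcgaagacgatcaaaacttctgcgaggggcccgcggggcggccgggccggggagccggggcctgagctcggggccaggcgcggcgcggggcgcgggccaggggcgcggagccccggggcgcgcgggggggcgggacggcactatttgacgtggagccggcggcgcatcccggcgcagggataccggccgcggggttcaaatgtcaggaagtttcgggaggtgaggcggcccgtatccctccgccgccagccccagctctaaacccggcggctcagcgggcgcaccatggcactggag
ISL1: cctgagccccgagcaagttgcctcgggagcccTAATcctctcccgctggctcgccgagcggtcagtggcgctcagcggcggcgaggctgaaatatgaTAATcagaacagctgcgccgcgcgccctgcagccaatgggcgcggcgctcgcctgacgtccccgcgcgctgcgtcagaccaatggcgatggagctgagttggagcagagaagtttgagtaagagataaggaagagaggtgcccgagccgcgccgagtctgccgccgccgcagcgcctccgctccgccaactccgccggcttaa
LHX9: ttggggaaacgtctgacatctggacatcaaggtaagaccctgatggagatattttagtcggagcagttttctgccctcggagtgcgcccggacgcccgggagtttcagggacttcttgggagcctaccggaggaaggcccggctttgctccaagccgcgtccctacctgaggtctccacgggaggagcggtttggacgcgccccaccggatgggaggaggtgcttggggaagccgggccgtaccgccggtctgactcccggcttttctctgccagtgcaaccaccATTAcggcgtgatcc
ISL2: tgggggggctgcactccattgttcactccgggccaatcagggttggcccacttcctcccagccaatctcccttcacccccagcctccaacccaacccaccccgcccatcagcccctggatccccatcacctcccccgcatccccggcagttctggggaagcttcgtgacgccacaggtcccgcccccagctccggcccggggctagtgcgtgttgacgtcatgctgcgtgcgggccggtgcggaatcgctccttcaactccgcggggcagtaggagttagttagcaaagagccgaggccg

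The windows of LMX1B and ISL2 held no TAAT. ISL1 had 2 copies, with first bases 218 and 153 bases before the start site, and LHX9 had 1 copy, downstream of the start site. Of the 8 members with a window, 3 held TAAT. By window it was present in 4 of 13, against 50.2% of the 35116 RefSeq windows of this length. CAGCTG, an E-box that reads the same on both strands, was present in 2 of the 13 windows, that of ISL1 among them, and in 17.9% of all windows. TATAAA, searched on both strands, was found in 1 member's window, that of LHX8, where its reverse complement ends on the first base of an ATTA, and in 11.5% of all windows. These windows were rich in CpG dinucleotides, with 42 in LMX1B, 36 in ISL1, 23 in LHX9 and 20 in ISL2 against a median of 14 over all windows. In all, 11 of the 13 windows of members lay above that median. A match to these letters is a description of the sequence and no binding was measured.

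Expression was deposited as FPKM, fragments scaled to transcript length and sequencing depth, with a single value for each record and day that covers the cultures of the day. No spread between cultures can therefore be given, and no test was run for the comparisons below. The number of fragments behind a value is unknown. Changes are differences in log2(FPKM + 0.1), which understates the change of low genes, and a change of at least 2-fold on this scale is called higher or lower. Calls were made among the 14107 coding records with a mean of at least 0.1 FPKM over the 7 days, and each count of members is given beside the share of these records called in the same direction. The median change of the 11793 coding records with a mean of at least 1 FPKM was -0.60 from day 0 to day 18, and changes relative to this median are given beside the deposited scale.

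Markers of the labelled cells were present. Between days 0 and 18, the summed FPKM of 6 progenitor markers (SOX2, NES, PAX6, SOX1, MSI1 and VIM) went from 3651 to 1793, and the sum for 6 neuron markers (DCX, MAP2, STMN2, SYT1, ELAVL4 and SNAP25) went from 149.6 to 1083. The progenitor sum is mostly VIM (2948 and 1493 FPKM) and NES (513 and 180.4), and gene by gene 1 marker was called lower (NES) and 1 higher (PAX6, 4.31 and 10.4), with a median log2 change of -0.69 that was -0.09 relative to the median of the coding records, where none was lower. All 6 neuron markers were called higher on either scale. In a mixed culture, fewer cells of a type and less RNA per cell cannot be told apart, which holds for each value below. A further 10 genes that define other tissues using LIM homeodomain factors, among them POU1F1 of the pituitary and CRX of the retina, stayed below 1 FPKM on every day, and 8 of the 10 stayed below 0.1 FPKM. Among the 8, INS has a record merged with IGF2 and INS-IGF2 that was listed at 0 on every day, so INS was not read on its own. The summed level of the 10 genes was 0.344 FPKM at day 0 and 0.385 at day 18. The pluripotency genes POU5F1 and NANOG did not exceed 0.108 FPKM. Of 4 neural crest genes, SOX10 and FOXD3 were below 0.2 FPKM on every day. TWIST1 stood at 1.21 FPKM at day 0, was lowest at day 11 at 0.291 and stood at 0.360 at day 18. PAX3, also a gene of the dorsal neural tube, was at 31.0 FPKM at day 0, 62.3 at day 11 and 27.9 at day 18. What part these cells have in the members' levels was not tested.

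By day 18, LMX1B, LHX5, LHX1, LHX9, ISL1 and ISL2 were higher than in the progenitors, and no member was lower. LMX1B had the highest level on every day, whereas LMX1A, LHX3 and LHX8 stayed near 0 throughout. Of the 10 members, 7 had a mean of at least 0.1 FPKM. Some of the 7 reached that mean only through their late values, and the following counts describe them without weighing them. From day 0 to day 18, 6 of the 7 were called higher, against 10.6% of the coding records, and none was called lower, against 28.2%. With a pseudocount of 1 in place of 0.1, 3 of these 6 were called, since LHX9 (0.87), ISL1 (0.61) and ISL2 (0.44) were then under 2-fold. Relative to the median, all 7 over the filter were called higher, against 19.3%, and none lower, against 12.1%. Of the 7, 6 had a mean between 0.1 and 1 FPKM, where changes were called more often. In that range, 5 of 6 members were higher, against 26.1% of 2314 coding records, and relative to the median all 6 were, against 43%. The median change of the 7 was 2.93, against -0.52 over the records tested. Over the records between 0.1 and 1 FPKM, the range of 6 of the 7, it was 0.17.

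**Figure D1:**
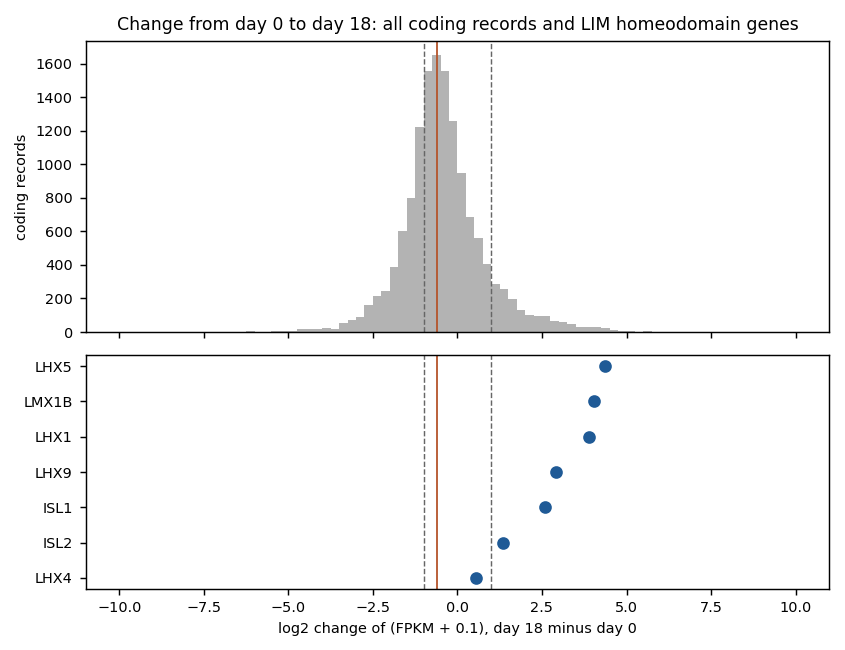
The upper panel is a histogram of the change from day 0 to day 18 in log2(FPKM + 0.1) over the 14107 coding records with a mean of at least 0.1 FPKM, and the lower panel gives the same change for the 7 members over that mean, 1 point each. Dashed lines mark 2-fold in either direction and the coloured line marks the median of -0.60 over records with a mean of at least 1 FPKM. The points of 6 members lie to the right of the upper 2-fold line, and LHX4, at 0.55, lies between the lines.

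LMX1B and LMX1A are close relatives, with shared roles in the midbrain and roof plate. LMX1B is in addition needed for serotonin neurons, the dorsal spinal cord and the dorsal side of the limb. The LMX1B record (chr9:129376748-129463311, plus strand, 3 isoforms) stood at 1.19, 1.59, 2.94, 3.98, 7.40, 17.2 and 21.1 FPKM on the 7 days, in order of time. Each day was higher than the one before. The whole change was 17.7-fold, a log2 change of 4.04 (4.64 relative to the median). The record begins 541 bases downstream of the annotated start site shown above. Already at day 4, before replating, LMX1B was 3.35-fold above day 0. At day 0 it stood above 44.2% of the coding records, and at day 18 above 89.2%. FPKM is scaled to length and can be compared between genes, and on that scale LMX1B made up 54.0% of the sum of the 10 members at first, 80.4% at day 11 and 72.1% at the end. The sum itself was 2.20 FPKM at day 0 and 29.2 at day 18.

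LMX1A (chr1:165171105-165325475, minus strand) stood at 0.0113, 0.0130, 0.0200, 0.0125, 0.0661, 0.0757 and 0.0597 FPKM on the 7 days. Its values were higher from day 5 onwards than before, but all were below 0.1 FPKM, and the deposited status marks its record as having too few fragments for a comparison at each of the 6 steps between adjacent days. At day 18, LMX1A and LMX1B thus lay at 0.0597 and 21.1 FPKM.

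LHX1 and LHX5 are paralogs found together in many interneurons of the spinal cord and hindbrain. LHX1 is also known from the head organizer and the kidney, and LHX5 from the forebrain. LHX5 (chr12:113900694-113909877, minus strand) stood at 0.0640, 0.0717, 0.258, 0.292, 0.423, 0.990 and 3.29 FPKM on the 7 days. Like LMX1B it was higher on each day than on the day before, 51.4-fold in all, with a log2 change of 4.37 (4.97 relative to the median). Its largest step on the log2 scale was the last, 1.64 from day 11 to day 18, a 3.33-fold difference. LHX5 stood above 29.8% of the coding records at day 0 and above 54.4% at day 18.

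LHX1 (chr17:35294499-35300494, plus strand) stood at 0.0223, 0.0801, 0.128, 0.125, 0.407, 0.420 and 1.73 FPKM. It moved in steps, level between days 2 and 4 and again between days 5 and 11, with its largest differences between days 4 and 5 and between days 11 and 18. The log2 change from day 0 to day 18 was 3.90 (4.50 relative to the median). A lincRNA record on the opposite strand shares 1732 bases of LHX1 exon, 55.1% of its length. Counting by strand is not stated for these files, so fragments of the pair cannot be told apart there and the LHX1 values are uncertain.

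LHX9, a gene of commissural interneurons in the dorsal spinal cord and of the gonad, was low at first. Its record (chr1:197881635-197901715, plus strand, 4 isoforms) stood at 0.0283, 0.0434, 0.0798, 0.156, 0.206, 0.793 and 0.876 FPKM. Each value was higher than the last, and most of the difference fell between days 5 and 11, when the level was 3.85-fold higher. The log2 change from day 0 to day 18 was 2.93 (3.53 relative to the median).

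ISL1 and ISL2 share roles in motor and sensory neurons, and ISL1 is also needed in the heart and the endocrine pancreas. ISL1 (chr5:50678958-50690557, plus strand) stood at 0.00461, 0.0131, 0.0362, 0.0773, 0.113, 0.471 and 0.528 FPKM. On the log2(FPKM + 0.1) scale this course was like that of LHX9 at a lower level. Every day was higher than the last, with a 4.16-fold difference from day 5 to day 11. Without the 0.1 added, day 4 was 16.8-fold above day 0 for ISL1 and 5.53-fold for LHX9. The ratio of the last to the first ISL1 value was 115, but the day 0 value was close to 0, and the log2 change was 2.59 (3.19 relative to the median). The ISL1 record had too few fragments for a comparison at 4 of the 6 steps, and 21.2% of its exon bases are shared with an opposite-strand lincRNA record. In contrast, LMX1B, ISL2 and LHX4 had enough fragments at all 6 steps, LHX5 at 4, and LHX1 and LHX9 at 3.

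ISL2 (chr15:76629147-76634816, plus strand) followed another course, with 0.168, 0.907, 1.13, 0.969, 0.753, 0.445 and 0.581 FPKM on the 7 days. It was 5.40-fold higher at day 1 than at day 0, was highest at day 2 and was lower on each of the next 3 days sampled. At day 18 it was still above day 0, with a log2 change of 1.35 (1.94 when centred on the median), although below its own level at day 1. Of its exon bases, 94.7% are shared with an opposite-strand lincRNA record, the highest such share in the group, so the ISL2 values are uncertain.

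LHX3 and LHX4 are paralogs of pituitary and motor neuron development. LHX4 (chr1:180199442-180244188, plus strand) stood at 0.708, 0.908, 0.851, 0.945, 1.20, 0.988 and 1.08 FPKM. It was steady, with a highest value 1.70-fold above the lowest, and its log2 change of 0.55 from day 0 to day 18 became 1.15, past 2-fold, only relative to the median. LHX3 (chr9:139088098-139096955, minus strand) lay between 0.00362 and 0.0279 FPKM over the days. LHX8 (chr1:75594119-75627216, plus strand), a factor of cholinergic neurons in the basal forebrain, was listed at 0 on every day but day 4, at 0.00472 FPKM. Both records had too few fragments for a comparison at all 6 steps.

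**Figure D2:**
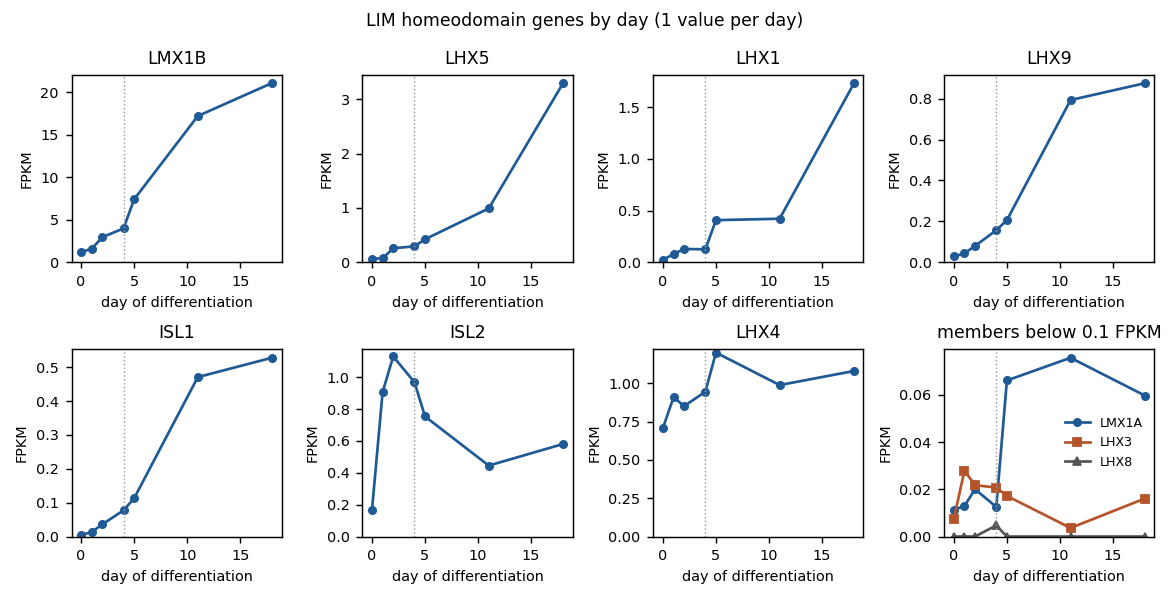
FPKM (vertical axis, linear from 0, with its own range in each panel) against day of differentiation for each member, with 1 point a day. The dotted line marks replating at day 4, and the last panel holds the 3 members below a mean of 0.1 FPKM. LMX1B, LHX5, LHX9 and ISL1 are higher at each later day, LHX1 moves in steps, ISL2 is highest at day 2 at 1.13 FPKM and LHX4 stays between 0.708 and 1.20 FPKM.

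The members differed in when they moved. From day 0 to day 1, ISL2 alone was called higher, against 4.61% of the coding records and 9.77% of those between 0.1 and 1 FPKM. From day 1 to day 2 it was LHX5 (0.269% and 0.951%), and from day 2 to day 4 no member was called, against 0.184%. From day 4 to day 5, the step that spans replating, LHX1 alone was called higher (0.432% and 1.34%). LMX1B, at 0.88 on the log2 scale, was just under 2-fold at that step. From day 5 to day 11, LMX1B, LHX5, LHX9 and ISL1 were called higher, 4 of 7 members against 2.56% of the coding records and 6.44% of those between 0.1 and 1 FPKM. From day 11 to day 18 the members called were LHX1, at 1.81, and LHX5, at 1.64 (1.66% and 5.83%). No member was called lower at any step, against 3.68%, 0.298%, 1.11%, 0.106%, 4.57% and 3.54% of the coding records over the 6 steps in order of time, so that a count of 0 is close to the background. The lowest change was that of ISL2 from day 5 to day 11, at -0.65. The same members were called at each step relative to the median.

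LMX1B, LHX5, LHX9 and ISL1 were higher on each day than on the day before. This was so for 2.3% of the coding records with a mean of at least 0.1 FPKM, and for 3.72% of those between 0.1 and 1 FPKM, the range of 3 of these 4 members. The measure was chosen after the values had been seen. Over the 7 days, Pearson's r of log2(FPKM + 0.1) was 0.999 between LHX9 and ISL1 and 0.967 between LHX1 and LHX5. LMX1B had r of 0.979 with LHX9, 0.974 with ISL1, 0.953 with LHX5 and 0.924 with LHX1. ISL2 stood apart from these 5, with r between -0.07 and 0.10. Each r rests on 7 points that share the libraries of a day, and it describes a shared course only.

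Records of long intergenic noncoding RNAs (lincRNAs) lie beside most of these genes. Within 50 kb of the members the catalogue held 10 lincRNA records, at 9 of the 10 members. LHX9 had none. Of these, 9 were on the strand opposite to the member and 6 had a mean of at least 0.1 FPKM. In 4 pairs, those of LHX1, ISL1, ISL2 and LMX1A, the lincRNA shares exon bases with the member. The LMX1B partner, linc-MAPKAP1-3 (chr9:129351664-129375979, minus strand), overlaps the gene annotated as LMX1B-DT in GENCODE. It starts 769 bases from the start of the LMX1B record, runs away from it and shares no exon base with it. Its level was 0.104, 0.231, 0.292, 0.428, 0.889, 2.50 and 2.38 FPKM on the 7 days. It was 22.9-fold higher at day 18 than at day 0 and, unlike LMX1B, was not higher at day 18 than at day 11. Its r with LMX1B was 0.990, and 9 of 7636 lincRNA records with a mean of at least 0.1 FPKM, itself included, had an r as high.

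The LHX5 partner, linc-MAP1LC3B2-5 (chr12:113910751-113918418, plus strand), overlaps LHX5-AS1, starts 874 bases from the LHX5 start and also shares no exon base with its neighbour. It stood at 0.0518, 0.0794, 0.219, 0.289, 0.751, 1.28 and 5.03 FPKM, 97.2-fold higher at day 18 than at day 0. From day 5 onwards its level was above that of LHX5, which at day 18 was 0.654 times as high. The r of this pair was 0.991, reached by 5 of the 7636 lincRNA records.

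linc-LHX1-AS (chr17:35283388-35297800, minus strand) stood at 0.0125 FPKM at day 0 and 0.616 at day 18, with r of 0.967 to LHX1. linc-ISL2-AS was highest at day 2, as ISL2 was, at 0.178 FPKM, with r of 0.928. Both share exon bases with their member, so that these 2 likenesses may not come from separate RNAs. Not every neighbour moved with its member. linc-QSOX2-AS starts 1042 bases from LHX3 and stood at 2.44 FPKM at day 0 and 1.60 at day 18, while LHX3 was near 0 throughout. linc-QSOX1-AS, 21994 bases from LHX4, stood at 0.139 and 0.226 FPKM on these days.

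**Figure D3:**
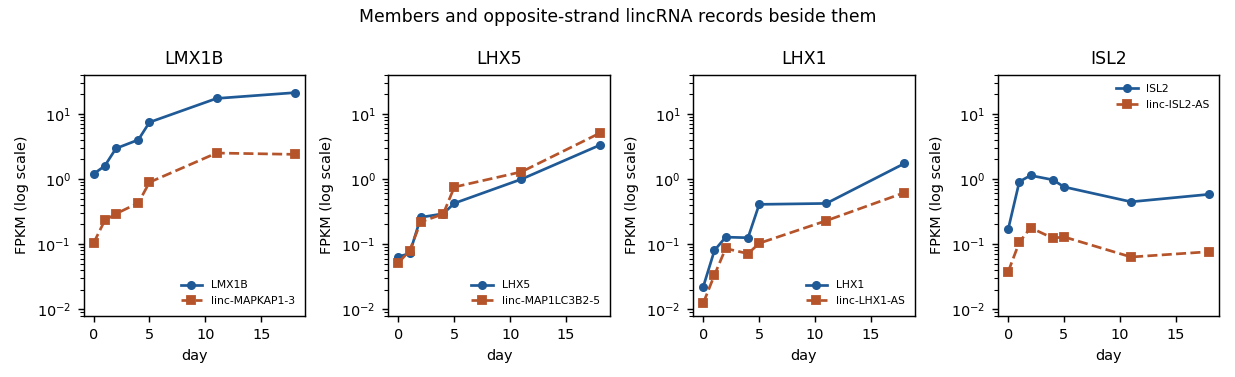
FPKM on a log axis against day for 4 members (circles, solid lines) and the opposite-strand lincRNA record beside each (squares, dashed lines), 1 value per day. In the first 2 panels, LMX1B and LHX5, the pair shares no exon base and r was 0.990 and 0.991, and in the last 2, LHX1 and ISL2, exon bases are shared.

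The proteins with which LIM homeodomain factors assemble were described from a list of 10 genes. From day 0 to day 18, 3 were called higher, against 10.6% of the coding records, and 1 lower, against 28.2%. The core adaptor LDB1 stood at 58.2 FPKM at day 0 and 54.4 at day 18, and its paralog LDB2 at 7.76 and 7.64. LMO1, LMO2 and LMO3, the LIM-only competitors, were called higher. LMO1 stood at 0.433 FPKM at day 0 and 6.23 at day 18, LMO2 at 0.107 and 0.957, and LMO3 at 0.211 and 2.14. LMO2 and LMO3 had means between 0.1 and 1 FPKM, where 26.1% of the coding records were called higher. LMO4 was at 5.02 and 5.88 FPKM. SSBP4, of a family that stabilises LDB, was at 20.5 and 6.76 FPKM, a log2 change of -1.59 that was -0.99 relative to the median. Beside LMX1B, LMO2 had r of 0.992 over the 7 days and LDB1 of 0.05. The median change of the list was 0.18, against -0.52 over the records tested.

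Genes of the neuron classes in which LIM homeodomain factors act were taken from 5 further lists. With the cofactors they made 58 genes, of which 30 had a mean of at least 0.1 FPKM. Of the 30, 15 were called higher and 3 lower, beside the 10.6% and 28.2% of all coding records given above. A mean of at least 1 FPKM was met by 16 of the 30, with 7 higher and 3 lower. Between 0.1 and 1 FPKM, the range of the rest, 26.1% of coding records were called higher and 19.6% lower. Some of the 30, PAX2, RELN and NKX6-1 among them, reached the mean of 0.1 FPKM only through their late values. The list counts therefore describe these genes without weighing them. Of 13 genes of spinal and hindbrain interneurons and sensory neurons, 6 were over the filter, 4 were higher and 1 lower, with a median change of 3.0. TLX3, which specifies excitatory neurons of the dorsal horn, stood at 1.11, 1.91, 3.42, 4.15, 6.79, 17.7 and 15.9 FPKM, with r of 0.992 to LMX1B. POU4F1, of sensory neurons, was at 2.29 FPKM at day 0, 41.7 at day 11 and 24.4 at day 18. BHLHE22 stood at 0.110 and 3.82 FPKM at days 0 and 18, and PAX2, of inhibitory interneurons, was listed at 0 at day 0 and stood at 0.525 at day 18. EN1, of ventral interneurons and the midbrain and hindbrain, went the other way, from 2.49 to 0.140 FPKM, a log2 change of -3.44. GATA2, also over the filter, was called neither way, at 0.260 and 0.211 FPKM at days 0 and 18. PAX8, EVX1, GATA3 and BARHL1 stayed below 0.1 FPKM on every day. The PAX2 record had enough fragments for a comparison at 1 of the 6 steps between adjacent days.

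Motor and cholinergic genes were mostly low. Of 8 genes, 3 were over the filter and 2 were called higher, NKX6-2 at 1.29 and 4.02 FPKM and NKX6-1 at 0.0286 and 0.187 FPKM at days 0 and 18, with a median change of 1.16. MNX1, a motor neuron factor that works beside ISL1 and LHX3, did not exceed 0.133 FPKM. CHAT, the acetylcholine-making enzyme, whose record is merged with C10orf53, did not exceed 0.0467 FPKM. SLC18A3, the third gene over the filter, stood at 0.118 FPKM at day 0, 0.266 at day 11 and 0.224 at day 18. Its log2 change from day 0 to day 18 was 0.57, under 2-fold, and 1.17 relative to the median.

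Of 15 genes of midbrain dopamine neurons, serotonin neurons and the roof plate, where LMX1A and LMX1B are known to act, 6 were over the filter, 3 were higher and 1 lower, with a median change of 0.74. The dopamine-synthesis genes TH (0.103 and 0.545 FPKM at days 0 and 18) and DDC (0.269 and 1.19) and the factor NR4A2 (0.109 and 0.540) were called higher. EN2, of the midbrain and hindbrain boundary, was at 22.2 and 7.84 FPKM, a change of -1.49 that was -0.89 relative to the median. FOXA2, a factor of the floor plate and dopamine neurons, did not exceed 0.00523 FPKM, FEV, of serotonin neurons, did not exceed 0.0186, and the roof plate signal WNT1 did not exceed 0.00952. Others of the list were not as close to 0. MSX1 stood at 0.240 and 0.208 FPKM at days 0 and 18, TPH2 at 0.119 and 0.0334, and GDF7 reached 0.174 at day 2. OTX2, PITX3, SLC6A3, CORIN and SLC6A4 stayed below 0.1 FPKM on every day.

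In the forebrain, LHX5 is known from Cajal-Retzius cells, and LHX8 from the ventral telencephalon. Of 6 forebrain and Cajal-Retzius genes, 3 were over the filter and 2 were higher, CALB2 (calretinin) at 0.526 and 15.6 FPKM and RELN (reelin) at 0.0328 and 0.978 FPKM, with a median change of 3.02. The third, TP73, a marker of Cajal-Retzius cells, was at 0.266 and 0.137 FPKM, a change of -0.63 that was -0.03 relative to the median. The forebrain factor EMX2 did not exceed 0.00982 FPKM. NKX2-1, which acts with LHX8 and whose record is merged with SFTA3, was listed at 0 on every day but day 18, at 0.00696 FPKM. Of a pair of further LIM homeodomain genes of the forebrain, LHX2 was called higher, at 0.111 and 0.445 FPKM with a highest value of 0.801 at day 11, a log2 change of 1.37 (1.97 relative to the median). LHX6, below the filter, stood at 0.0869 and 0.0127 FPKM with a highest value of 0.208 at day 5.

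**Figure D4:**
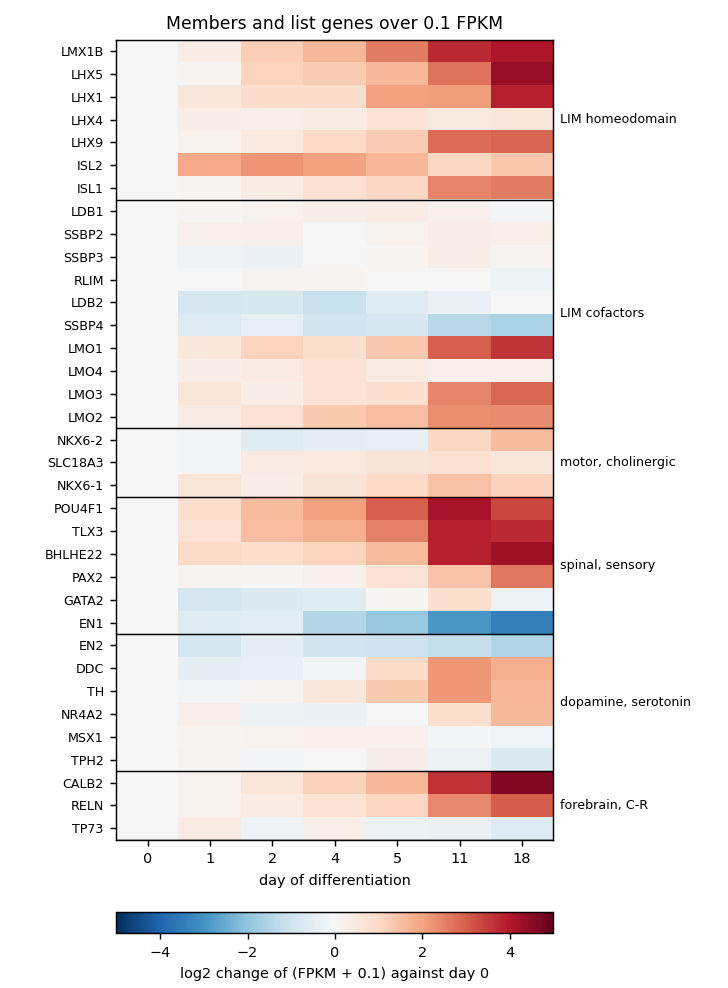
Change in log2(FPKM + 0.1) against day 0 (colour, blue for lower and red for higher) by day for the 7 members and for the genes of 5 lists with a mean of at least 0.1 FPKM, grouped by list without the ventral telencephalon list, where C-R stands for Cajal-Retzius. LMX1B, LHX5, TLX3, BHLHE22 and CALB2 are redder at day 18 than at day 5, EN1 turns blue with a final change of -3.44, and most LIM cofactors stay pale.

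LMX1B, the member with a mean of at least 1 FPKM, was set against all coding records over that mean. UNCX, a homeodomain factor, had the nearest course, with r of 0.999 and 0.294, 0.528, 1.09, 1.66, 3.09, 9.25 and 11.6 FPKM on the 7 days. CPLX2 and SYT4, which act in vesicle release at synapses, had r of 0.998 each and stood at 15.9 and 47.6 FPKM at day 18, from 1.26 and 1.34 at day 0. Such a course was common, since 369 of 11792 coding records (3.13%) had r of at least 0.95 to LMX1B. The neuron markers STMN2 and DCX had r of 0.996 and 0.988. For members of lower level, compared after their values had been seen, 376 of 11793 coding records reached that r with ISL1 and 65 with ISL2. ATP9A and GATS were among the 3 nearest records of both ISL1 and LHX9, with r between 0.996 and 0.997, and DOCK3 was nearest to LHX5, with r of 0.996. LRP1, a lipoprotein receptor, was nearest to ISL2, with r of 0.995, at 26.8 FPKM at day 0 and 54.8 at its peak on day 2.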

How the data were processed

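PolyA RNA of 20 cultures was sequenced as paired ends, grouped by day from their labels. As the methods describe, the authors mapped reads to hg19 (GRCh37) using TopHat2, built transcripts in Cufflinks, added coding and lincRNA catalogues and quantified all records in Cuffdiff2 with default settings, whose library type is unstranded. Versions are not given in the sources used here. The authors deposited FPKM values, 1 per record and day, so no replicate error or depth could be had and no test was run here. The authors also deposited columns of their own comparisons of adjacent days (a log2 fold change, a test statistic, p-values, q-values and a significance flag), which were not used. Only the status column, which says whether a record had enough fragments for a comparison, was read.

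Per symbol, the coding record with the highest mean was taken. Changes are differences in log2(FPKM + 0.1), called at 2-fold among coding records with a mean of at least 0.1 FPKM, beside the share of all such records called. Members and lists were chosen with earlier results of these data known. By rule, the text names every member, at most 5 list genes past 2-fold per list, by size of the change, list genes near 0 that define a cell type, the 3 genes most like LMX1B, and lincRNA records within 50 kb with a mean of at least 0.1 FPKM. Further list genes, marker sums and the genes nearest to other members were chosen after their values were seen. Some genes of the lists, and the separate count of the ventral telencephalon list, are not reported here. Other pseudocounts, filters, folds, the median scaling, summed records and day 11 in place of day 18 were tried. Promoter windows from RefSeq (GRCh38.p14) were placed on GRCh37 by exact match, and gene annotation came from GENCODE on GRCh37. Python 3.11.15, pandas 2.3.3, NumPy 2.4.6 and matplotlib 3.10.9 were used, and the counting was tested on simulated data.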

Additional observations from a re-analysis of the deposited data

How the results depend on the processing

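The limits of these values are 1 value per day, unknown depth, fragments that overlapping genes may share and the scaling of the days. With a pseudocount of 1, the members called higher from day 0 to day 18 went from 6 to 3, those at adjacent days from 9 to 2 and the list genes from 15 to 8, because low genes lose most of their change on that scale. LHX9 (0.87), ISL1 (0.61) and ISL2 (0.44) were the members no longer past 2-fold. With a mean of at least 1 FPKM, which of the members LMX1B alone meets, these counts were 1, 1 and 7. At 4-fold, no member was called at adjacent days (0) and 1 list gene was lower in place of 3. At 1.5-fold, 1 member was lower at an adjacent step and 6 list genes were lower. Relative to the median change, 1 list gene was lower, and LHX4 (1.15) was past 2-fold. No value changed direction under the alternatives tried. The other 35 counts stayed within 1.5 times of the main ones. No paired analysis was possible because the files carry 1 value per day and no replicate, and for the same reason no replicate could be left out.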
